A study of Mus musculus with 6 samples.

Results

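The 39 HOX cluster genes are the rows of the deposited count table whose gene name is Hoxa, Hoxb, Hoxc or Hoxd followed by a number, out of 56980 genes in the table. They comprised 11 genes of the HOXA cluster, 10 of HOXB, 9 of HOXC and 9 of HOXD, numbered from paralogue group 1 to 13. The genes were read in RNA-Seq of BM MSCs, the plastic-adherent stromal cells of bone marrow, in 3 TranspCtrl and 3 TranspExer samples. All recipients were female mice that had undergone ovariectomy (OVX) at 8 weeks of age, had received antibiotics to deplete their own gut microbiota, and were then given fecal microbiota transplantation (FMT) by gavage for 8 weeks. Donors of the TranspCtrl group were sedentary OVX mice, and donors of the TranspExer group were exercised OVX mice. Marrow flushed from the hindlimb bones was cultured for 7 days, with no sorting step described, so cells other than stroma could remain in the culture. The question addressed here is whether the HOX code of these cells differed with the donor of the microbiota. Nothing in the labels states that the 3 samples of a group came from separate animals, so p-values measure the spread between these samples, which may be technical.

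HOX genes encode homeodomain transcription factors that give cells their position along the body and limb axes, and adult stromal cells keep much of the HOX pattern of the place where they arose. Within each cluster the genes lie in the order in which they act from anterior (group 1) to posterior (group 13), and genes with the same number in different clusters are paralogues. In the limb, groups 9 and 10 act in the upper segment, group 11 in the middle segment (radius and ulna, tibia and fibula) and group 13 in the hand and foot. Blood stem and progenitor cells also use HOX genes, largely the HOXA and HOXB genes, so marrow cultures can hold HOX transcripts from more than 1 kind of cell. In bulk RNA-Seq, fewer cells of a type and less RNA per cell cannot be told apart.

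In mm10, the build the labels name, the 11 Hoxa genes lie on the minus strand of chromosome 6, and the Hoxb, Hoxc and Hoxd genes lie on the plus strand of chromosomes 11, 15 and 2. The 2 genes at the posterior side of HOXA that fell, *Hoxa10* (chr6:52231197-52240854) and *Hoxa11* (chr6:52242106-52245810), are neighbours, and *Hoxb8* (chr11:96281905-96285315) was among the genes that rose. Their proximal promoters are shown because these 3 members changed between the groups and have a RefSeq window that starts exactly at the annotated start. Other members, such as *Hoxa5* and *Hoxb4*, also have such a window and are not shown. Each line gives the 250 bases before the start in GRCm38.p6 (mm10), 5′ to 3′ on the strand of the gene, with capitals for the motifs that were searched on both strands. The motifs were the TATA box (TATAAA), the GC box (GGGCGG), the CCAAT box (CCAAT), a MEIS site (TGACAG) and a HOX-PBX site (TGATTNAT).
Hoxa11, chr6:52245811-52246060, minus strand: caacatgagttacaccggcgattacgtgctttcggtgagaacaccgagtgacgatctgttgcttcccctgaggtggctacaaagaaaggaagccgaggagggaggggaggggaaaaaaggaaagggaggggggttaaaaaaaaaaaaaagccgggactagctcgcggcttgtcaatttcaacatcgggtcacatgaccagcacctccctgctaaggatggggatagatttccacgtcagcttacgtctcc
Hoxa10, chr6:52240855-52241104, minus strand: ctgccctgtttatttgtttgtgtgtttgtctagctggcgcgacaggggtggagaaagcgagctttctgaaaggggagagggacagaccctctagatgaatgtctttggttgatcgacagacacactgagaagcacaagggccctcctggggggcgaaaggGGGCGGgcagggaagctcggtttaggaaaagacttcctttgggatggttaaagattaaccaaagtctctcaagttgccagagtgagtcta
Hoxb8, chr11:96281655-96281904, plus strand: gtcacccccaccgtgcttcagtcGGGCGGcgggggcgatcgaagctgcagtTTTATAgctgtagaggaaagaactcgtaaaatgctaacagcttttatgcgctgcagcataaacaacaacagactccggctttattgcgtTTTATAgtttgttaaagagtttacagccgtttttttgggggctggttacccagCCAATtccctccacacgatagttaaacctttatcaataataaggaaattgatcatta
The *Hoxb8* window held 2 matches to the TATA box, both on the opposite strand, and 1 match each to the GC box and the CCAAT box. The *Hoxa10* window held 1 GC box. RefSeq lists a second *Hoxa10* window (chr6:52234940-52235189), which starts 5915 bases from the annotated start and is not shown, with 1 TATA box and 1 CCAAT box. The *Hoxa11* window held none of the 5 motifs, which says only that these letters are not in that window. RefSeq windows were found for 22 of the 39 members (24 windows in all). Of these 24 windows, 4 held the TATA box, 10 the GC box, 14 the CCAAT box, 2 the MEIS site and 2 the HOX-PBX site. Among all 32851 promoter windows of the same length, the shares with a match were 12.4%, 32.7%, 33.8%, 15.9% and 2.82%, in the same order. The HOX windows had a median of 12.5 CpG dinucleotides, against 6 over all windows.

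Transcript levels peaked at *Hoxc10* and *Hoxa10*, and the posterior HOXD genes were not detected. Of the 39 members, 33 had a count in at least 1 sample and 22 reached a mean of at least 1 TPM, the count per length of annotated exon, scaled to the same total in every library (20 with the deposited lengths). The 6 members with no count in any library were *Hoxb1* and *Hoxd1* at the anterior end and *Hoxd10*, *Hoxd11*, *Hoxd12* and *Hoxd13* at the posterior end. In each library 3 counts corresponded to 0.139 to 0.174 CPM (counts per library size, with TMM factors), and a level below that rests on fewer than 3 counts. The libraries held 17647682 to 21319228 counts, of which 1827 to 2460 lay on HOX genes. TranspCtrl 1 stood apart from the other TranspCtrl samples, with the highest summed level of mature blood cell markers and the lowest of stromal markers in that group, and the lowest *Hoxc10*, *Hoxa3* and *Hoxa7* levels of the 6 samples. Without TranspCtrl 1, *Hoxa3* (log2 fold change 0.80) moved to 0.55 and kept its call, *Hoxb2* moved from 0.25 to 0.52, *Hoxb7* from 0.18 to 0.46 and *Hoxa5* from -0.15 to -0.36, and *Hoxa7* and *Hoxd8* turned from 0.07 to -0.11 and -0.02. The last 5 were not called with or without it.

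**Figure D1:**
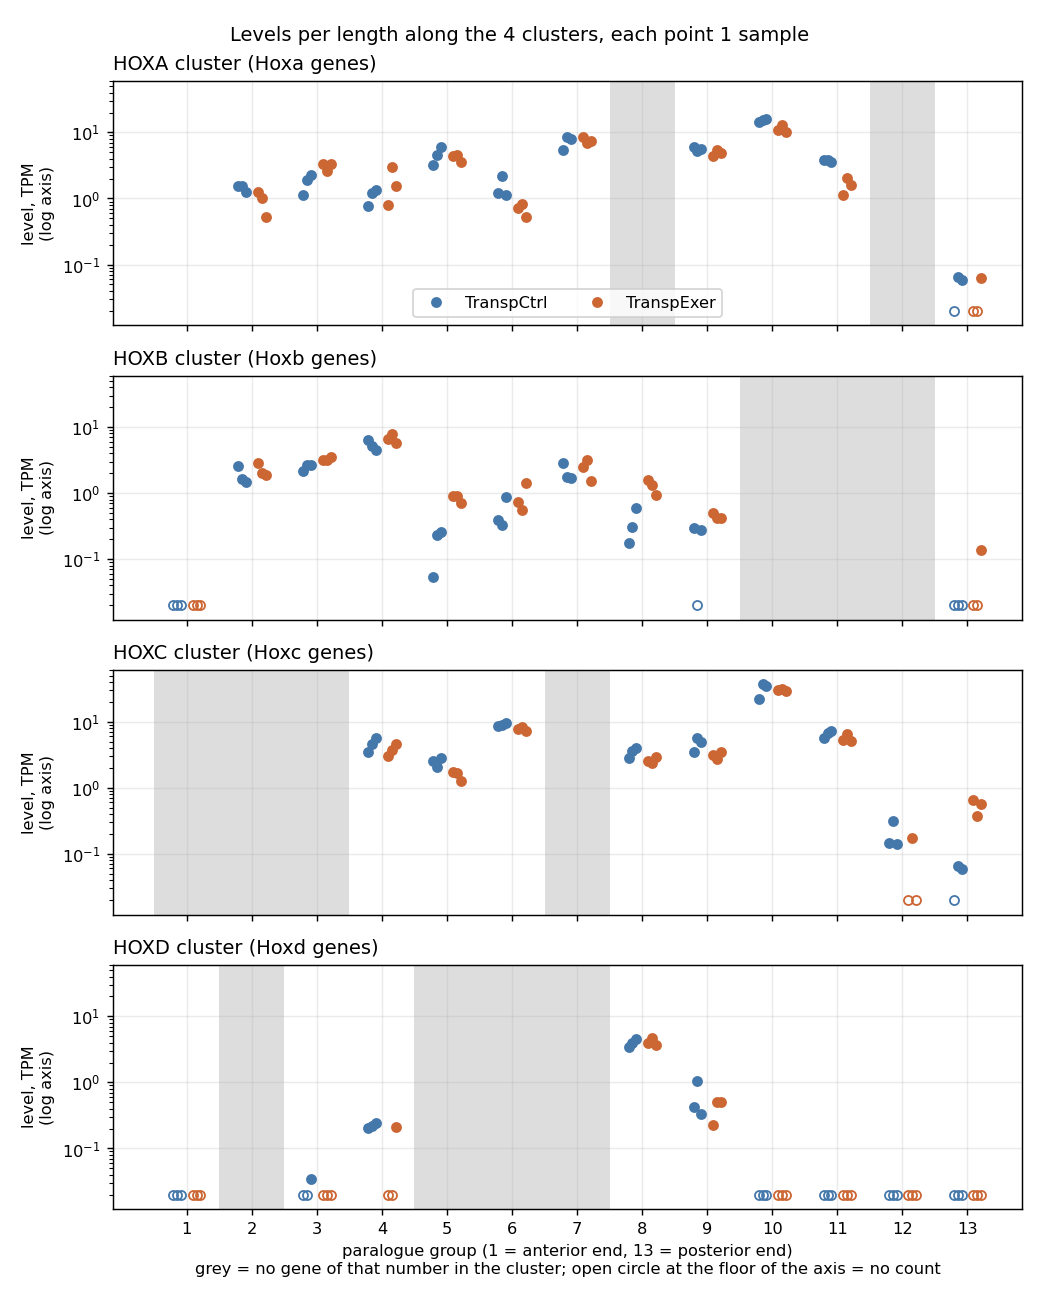
Level per length of HOX genes (TPM, log axis) against its paralogue group, with 1 panel for each cluster and 1 point for each of the 6 samples. Levels were highest for *Hoxc10*, and *Hoxd10* to *Hoxd13* had no count in any sample.

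In HOXC, *Hoxc10* was the member with the highest level of all 39. *Hoxc10*, a group 10 gene of the hindlimb and lumbar region, stood at 21.7, 37.8 and 34.3 TPM in the TranspCtrl samples and at 30.5, 31.8 and 29.4 TPM in the TranspExer samples. TranspCtrl 1 was the lowest of the 6, and the groups overlapped. *Hoxc6* followed with 8.60, 8.82 and 9.61 TPM in TranspCtrl and 7.87, 8.43 and 7.31 TPM in TranspExer. The TranspExer samples all lay below the TranspCtrl samples, by little. Over the 6 samples, *Hoxc10* did not overlap with *Hoxc6*, nor *Hoxc6* with the next gene, *Hoxc11*, at a mean of 6.09 TPM. *Hoxc4*, *Hoxc9*, *Hoxc8* and *Hoxc5* followed at means of 4.18 to 2.01 TPM, each overlapping the next. The posterior end of the cluster fell off, with *Hoxc13* at 0.28 TPM and *Hoxc12* at 0.13 TPM.

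In HOXA the level also peaked at group 10. *Hoxa10* stood at 14.2, 15.5 and 16.2 TPM in TranspCtrl and at 11.0, 12.8 and 10.3 TPM in TranspExer. All TranspExer samples were below all TranspCtrl samples. *Hoxa7* was second at 5.40, 8.66 and 8.03 TPM in TranspCtrl and 8.53, 6.99 and 7.41 TPM in TranspExer, with overlapping groups. Lower means were *Hoxa9* (5.26 TPM), *Hoxa5* (4.37), *Hoxa11* (2.67), *Hoxa3* (2.40), *Hoxa4* (1.44), *Hoxa2* (1.19) and *Hoxa6* (1.11). Neighbours in this order overlapped over the 6 samples, so the order is not fixed by these data. It also depends on the length used, since *Hoxa3* stood at 4.41 TPM by the longest transcript and 3.73 by the deposited length, above *Hoxa5* (3.46 and 2.93) and *Hoxa11* (2.12 and 1.79). *Hoxa13*, which acts in the most distal limb, was at 0.03 TPM and had 3 counts in all 6 libraries together.

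HOXB levels were led by *Hoxb4*, a gene used in blood stem cells and trunk mesoderm. *Hoxb4* stood at 6.35, 5.12 and 4.45 TPM in TranspCtrl and at 6.70, 7.84 and 5.84 TPM in TranspExer. *Hoxb3*, the second, stood at 2.19, 2.64 and 2.66 TPM in TranspCtrl and at 3.23, 3.19 and 3.48 TPM in TranspExer. *Hoxb4* overlapped between the groups and *Hoxb3* did not. With gene lengths as the deposited table lists them, *Hoxb3* stood above *Hoxb4* (4.36 against 4.04 TPM), so this order depends on the length used. *Hoxb7* and *Hoxb2* followed at 2.24 and 2.07 TPM (1.79 and 2.96 with the deposited lengths). *Hoxb8* was at 0.82 TPM (1.25 with the deposited length), and *Hoxb6*, *Hoxb5* and *Hoxb9* were below 1 TPM. *Hoxb13* had 2 counts in all.

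HOXD was nearly silent apart from *Hoxd8*. *Hoxd8*, a group 8 gene, stood at 3.44, 3.90 and 4.48 TPM in TranspCtrl and at 3.95, 4.75 and 3.66 TPM in TranspExer. The groups overlapped. *Hoxd9*, the second, stood at 0.43, 1.06 and 0.33 TPM in TranspCtrl and at 0.22, 0.51 and 0.51 TPM in TranspExer, and it did not overlap with *Hoxd8* in any sample. *Hoxd4* and *Hoxd3* were at 0.15 and 0.01 TPM. Group 11, the middle limb segment group, was therefore read from *Hoxa11* and *Hoxc11*, with no count from *Hoxd11*.

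The TranspExer and TranspCtrl groups were compared with edgeR's quasi-likelihood test over the 15190 genes that passed its low-count filter, with Benjamini-Hochberg adjustment and a call at an adjusted p-value under 0.05. Of the 39 HOX genes, 23 passed the filter and 16 did not. The genes called were 26.1% of the 23, where 32.2% of all genes tested were called. Among them, *Hoxa3*, *Hoxb5* and *Hoxb8* rose and *Hoxa10* and *Hoxa11* fell. In each direction the shares were 17.4% higher against 16.6% of all genes and 8.70% lower against 15.5% of all genes. The share of HOX genes called was thus not above that of all genes. DEGs, which also needed a fold change of 2, were *Hoxb5* and *Hoxb8* (higher, against 3.50% of all genes) and *Hoxa11* (lower, against 5.28%). *Hoxb5* and *Hoxb8* reached the filter's level in 3 TranspExer samples and in 0 and 1 TranspCtrl samples, so they passed through the group where they were high and had to differ.

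**Figure D2:**
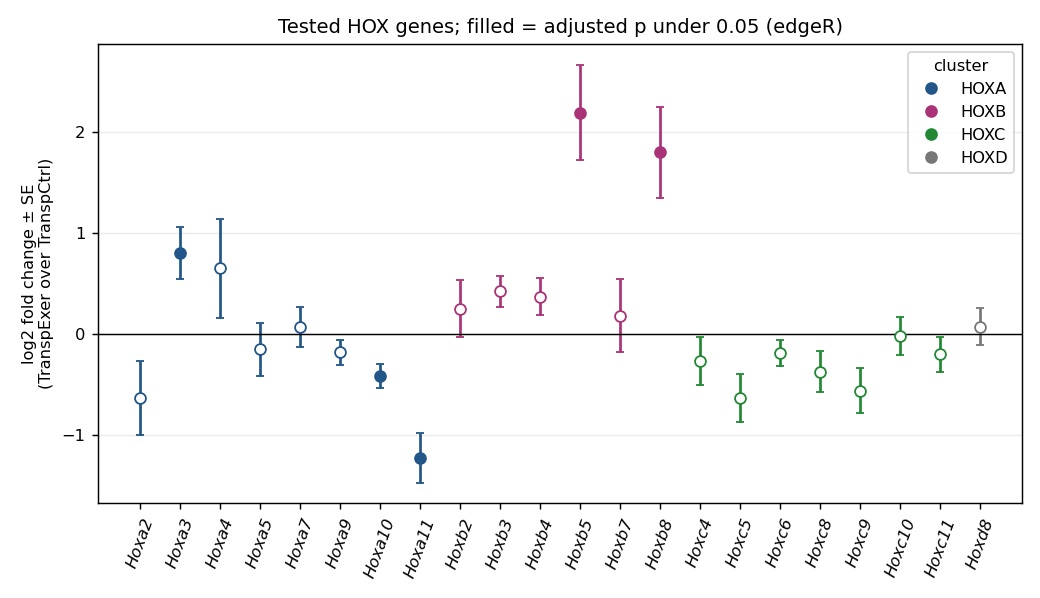
Log2 fold change ± SE (TranspExer over TranspCtrl) of tested HOX genes, ordered along each cluster, with filled points for an adjusted p-value under 0.05. *Hoxb5* (2.19) and *Hoxb8* (1.79) lie highest and *Hoxa11* (-1.22) lowest, and all 7 tested HOXC genes lie below 0.

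*Hoxa11*, which patterns the middle limb segment and marks the skeletal stem cells of that segment in the adult, fell most. It stood at 2.83, 2.77 and 2.65 CPM in the TranspCtrl samples and at 0.84, 1.51 and 1.19 CPM in the TranspExer samples. All TranspExer samples lay below all TranspCtrl samples, and the TranspCtrl samples were close together. The log2 fold change was -1.22 ± 0.25 (SE) with an adjusted p-value of 0.00818 (edgeR), and it passed the test in all 13 alternative fits (-1.44 to -1.03, adjusted p at most 0.0383). Its neighbour *Hoxa10* stood at 14.9, 16.0 and 17.3 CPM in TranspCtrl and at 11.8, 13.4 and 10.8 CPM in TranspExer, again without overlap. The log2 fold change was smaller, -0.42 ± 0.12 (SE), with an adjusted p-value of 0.0286 (edgeR), and leaving out TranspCtrl 2, TranspCtrl 3, TranspExer 1 or TranspExer 3 ended the call (adjusted p 0.061, 0.0865, 0.0863 and 0.097).

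*Hoxa11* shares 800 bases, 35.0% of its exons, with the antisense gene *Hoxa11os* on the opposite strand. The counts of *Hoxa11os* were 10.1, 15 and 13 in TranspCtrl and 3, 4 and 12 in TranspExer, beside 54 to 57.9 counts of *Hoxa11* in TranspCtrl and 16 to 26 in TranspExer. In TranspExer 3 the antisense gene had 12 counts against 24 of *Hoxa11*. The labels name a stranded kit, and the strand setting of the counting is not given in the sources used here, so reads of the shared bases cannot be assigned with certainty. With the counts of the pair summed before the fit, the log2 fold change was -1.16 with an adjusted p-value of 0.01 (edgeR).

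At the anterior side of the same cluster, *Hoxa3*, which acts in the pharyngeal region and the neck, rose. *Hoxa3* stood at 2.15, 3.65 and 4.42 CPM in TranspCtrl and at 6.49, 4.94 and 6.31 CPM in TranspExer. TranspCtrl 1 was the lowest, and the groups did not overlap. The log2 fold change was 0.80 ± 0.26 (SE) with an adjusted p-value of 0.0468 (edgeR), called in 6 of 13 alternative fits with adjusted p-values from 0.0158 to 0.144.

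*Hoxa3* overlaps 5 annotated genes, among them *5730596B20Rik* with 19, 6 and 8 counts in the TranspCtrl libraries and 1, 0 and 2 in the others, *Hoxaas2* with 3.42 to 9.67 counts per library, and *Hoxaas3*, *Gm28308* and *Gm29430* with at most 4.9, 3.33 and 1 counts. With overlapping genes summed, the call was lost (log2 fold change 0.52, adjusted p 0.0636, edgeR).

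In HOXB, *Hoxb5* and *Hoxb8* rose from very low levels. *Hoxb5*, a gene known to mark long-term blood stem cells in the mouse, had 1, 4 and 5 counts in the TranspCtrl libraries and 16, 14 and 13 in the TranspExer libraries. *Hoxb8*, used in immature myeloid cells, had 3, 5 and 11 counts in the TranspCtrl libraries and 26, 19 and 16 in the TranspExer libraries. The groups did not overlap for either gene, at levels of at most 0.84 and 1.36 CPM. The log2 fold change was 2.19 ± 0.47 (SE, adjusted p 0.0108, edgeR) for *Hoxb5*, called in all 12 alternative fits that tested it (1.77 to 2.54, adjusted p at most 0.0461). For *Hoxb8* it was 1.79 ± 0.45 (SE, adjusted p 0.0199), and the call ended without TranspCtrl 2, TranspExer 1 or TranspExer 2 (adjusted p 0.056, 0.079 and 0.0652). A filter of 1 CPM in 3 samples removed both genes. Except in the fit without a filter, both genes entered these fits through the TranspExer samples, where they were high. The repeated calls therefore add no support.

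**Figure D3:**
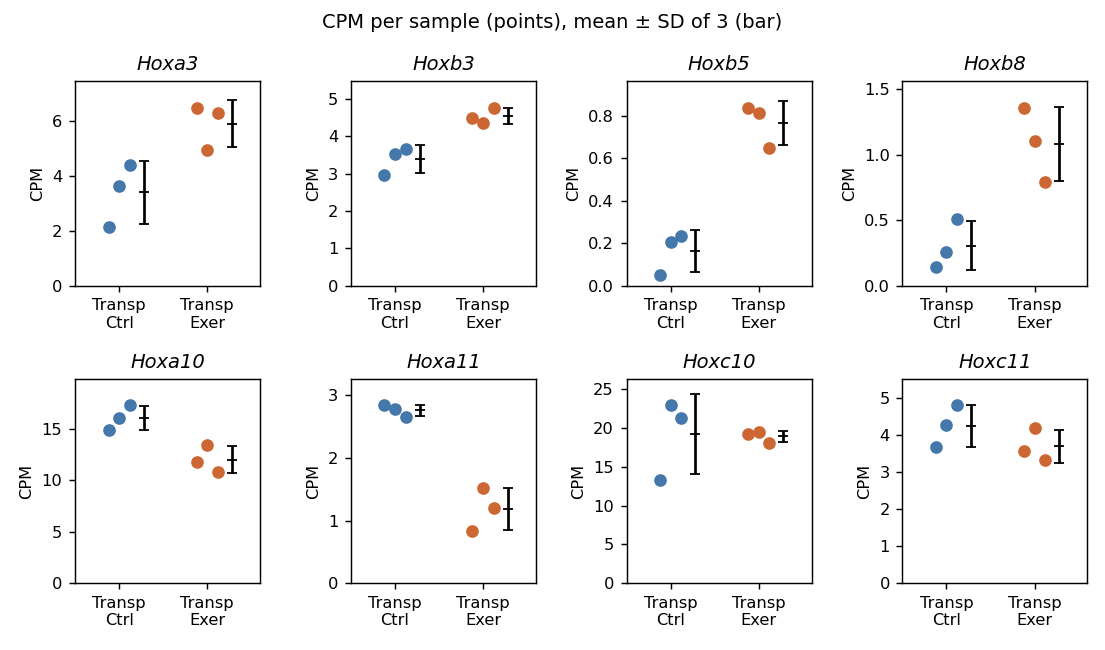
CPM per sample of the called HOX genes *Hoxa3*, *Hoxb5*, *Hoxb8*, *Hoxa10* and *Hoxa11*, of *Hoxb3*, and of *Hoxc10* and *Hoxc11*, the paralogues of *Hoxa10* and *Hoxa11*, with the mean ± SD of 3 samples as a bar beside the points. The groups do not overlap for the 5 called genes shown and *Hoxb3*, and overlap for *Hoxc10* and *Hoxc11*.

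The other 17 tested HOX genes did not pass the test. The nearest to the threshold were *Hoxb3* (log2 fold change 0.42, adjusted p 0.0737), *Hoxc5* (-0.63, adjusted p 0.0742) and *Hoxc9* (-0.56, adjusted p 0.0874), all by edgeR. With overlapping genes summed, *Hoxb3* lay at 0.22 (adjusted p 0.228), the gene added to it being the antisense *Hoxb3os*. *Hoxc9* passed the test without TranspCtrl 1 (-0.73, adjusted p 0.00884) and with scaling by library size only (-0.64, adjusted p 0.0485), and *Hoxb4* (0.37, adjusted p 0.162) passed it without TranspCtrl 1 (adjusted p 0.0318). For *Hoxc10*, the most abundant member, the log2 fold change was -0.02 ± 0.19 (SE, adjusted p 0.948), and it was -0.22 (adjusted p 0.0506) without TranspCtrl 1. The remaining 12 ranged from -0.63 for *Hoxa2* (adjusted p 0.217) to 0.65 for *Hoxa4* (adjusted p 0.336). The size of both values depended on single samples, and their signs did not. *Hoxa4* lay at 0.09 without TranspExer 2 and 0.99 without TranspExer 1. *Hoxa2* lay at -0.34 without TranspExer 3 and -0.94 without TranspExer 1. *Hoxd8* lay at 0.07 ± 0.18 (SE, adjusted p 0.788).

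The 16 members below the filter included *Hoxc13*, the most posterior HOXC gene, which acts in hair, nail and the distal limb. *Hoxc13* had 0, 1 and 1 counts in the TranspCtrl libraries and 10, 5 and 9 in the TranspExer libraries. The ratio of its summed counts was 13.1 (95% exact interval 3.24 to 114, covering counting error only), the log2 fold change with no filter was 3.45 and the adjusted p-value 0.00912 (edgeR), in a fit that called 18.2% of 28201 genes. *Hoxb9* had 10 counts in the TranspCtrl libraries and 21 in the TranspExer libraries, a ratio of 2.29 (1.03 to 5.44), and *Hoxa6* had 26 and 11, a ratio of 0.461 (0.205 to 0.965). Neither of these passed the test without a filter (adjusted p 0.361 and 0.276). *Hoxb6* (21 and 33 counts), *Hoxd9* (25 and 16), *Hoxd4* (13 and 4), *Hoxc12* (4 and 1), *Hoxa13* (2 and 1), *Hoxb13* (0 and 2) and *Hoxd3* (1 and 0) did not pass it either, and the 6 members with no count could not be fitted.

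The sign of the log2 fold change was shared by the tested genes of HOXB and, in the opposite direction, by those of HOXC. In HOXB, *Hoxb2*, *Hoxb3*, *Hoxb4* and *Hoxb7* had log2 fold changes above 0 (0.18 to 0.42, median 0.31), beside *Hoxb5* and *Hoxb8*, whose sign the low-count filter fixed. In HOXC, all 7 tested genes lay below 0 (median -0.27, moved to -0.13 without TranspCtrl 3, -0.43 without TranspCtrl 1 and -0.45 without TranspExer 3), while *Hoxc13*, below the filter, lay above 0. These directions of the tested genes were the same under each of the other 3 scalings, and 48.4% of all genes tested lay above 0. *Hoxc10*, at -0.02, lay above 0 with the replicate number as a block and without TranspCtrl 2, TranspCtrl 3 or TranspExer 3, and *Hoxb7* lay below 0 without TranspExer 2. None of the HOXC genes passed the test, and in HOXB only *Hoxb5* and *Hoxb8* did, so the shared directions are a description of the members. Leaving out *Hoxb5*, *Hoxb8* and *Hoxa2*, which passed the filter through 1 group only, 8 of the other 20 tested genes did not overlap between groups (40%, against 52.4% of all genes), 3 of them higher (27.2% of all genes) and 5 lower (25.1% of all genes). The median was -0.02 over the 23 tested genes and -0.09 over those 20, beside -0.02 over all genes tested.

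By paralogue class, *Hoxa3*, *Hoxb2* and *Hoxb3* of the anterior genes (groups 1 to 3) lay above 0 and *Hoxa2* below 0, 7 of 12 central genes (groups 4 to 8) lay above 0, and all 6 tested posterior genes (groups 9 to 13) lay below 0. These posterior genes were *Hoxa9*, *Hoxa10*, *Hoxa11*, *Hoxc9*, *Hoxc10* and *Hoxc11*, with a median of -0.31, and 2 of them passed the test. That share, 33.3%, stands beside 32.2% of all genes called in either direction and 15.5% called lower. In the same 4 fits *Hoxc10* was above 0, leaving 5 of 6 below. Posterior genes under the filter were split in the fit without the filter. *Hoxc13* (3.45), *Hoxb13* (2.70) and *Hoxb9* (1.16) lay above 0. *Hoxd9* (-0.53), *Hoxa13* (-0.71) and *Hoxc12* (-1.57) lay below 0. With scaling by library size only or by the upper quartile, *Hoxa7* and *Hoxd8* turned below 0, and 5 of 12 central genes then lay above 0. *Hoxa7* was also below 0 without TranspExer 1, *Hoxd8* without TranspExer 2, and *Hoxa5* (-0.15) lay at 0.12 without TranspCtrl 3.

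Summed over their members, HOXB and the anterior genes were higher in every TranspExer sample. HOXB summed to 13.2, 11.0 and 11.5 CPM in TranspCtrl and to 17.7, 17.3 and 15.2 CPM in TranspExer, a log2 ratio of 0.49. The anterior genes of all clusters summed to 11.0, 12.1 and 12.8 CPM in TranspCtrl and to 18.0, 16.0 and 16.5 CPM in TranspExer, also a log2 ratio of 0.49. *Hoxa9* to *Hoxa13* summed to 28.5, 28.1 and 30.0 CPM in TranspCtrl and to 20.8, 24.6 and 20.9 CPM in TranspExer. The groups did not overlap in this sum either, with a log2 ratio of -0.39. The sums of HOXA, HOXC and HOXD as wholes, and of the central and posterior genes, overlapped between groups. For HOXC the TranspCtrl samples summed to 34.3, 47.2 and 48.7 CPM and the TranspExer samples to 38.7, 39.5 and 38.0 CPM, so the overlap came from TranspCtrl 1 alone. Without TranspCtrl 1, the groups did not overlap in the sums of HOXC, HOXA, the posterior genes or all HOX genes, and the log2 ratio moved from -0.16 to -0.31, from -0.11 to -0.18, from -0.23 to -0.33 and from -0.05 to -0.13, in that order. All HOX genes together summed to 105 ± 11.5 CPM in the TranspCtrl samples and to 102 ± 4.38 CPM in the TranspExer samples (SD, n = 3 each).

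**Figure D4:**
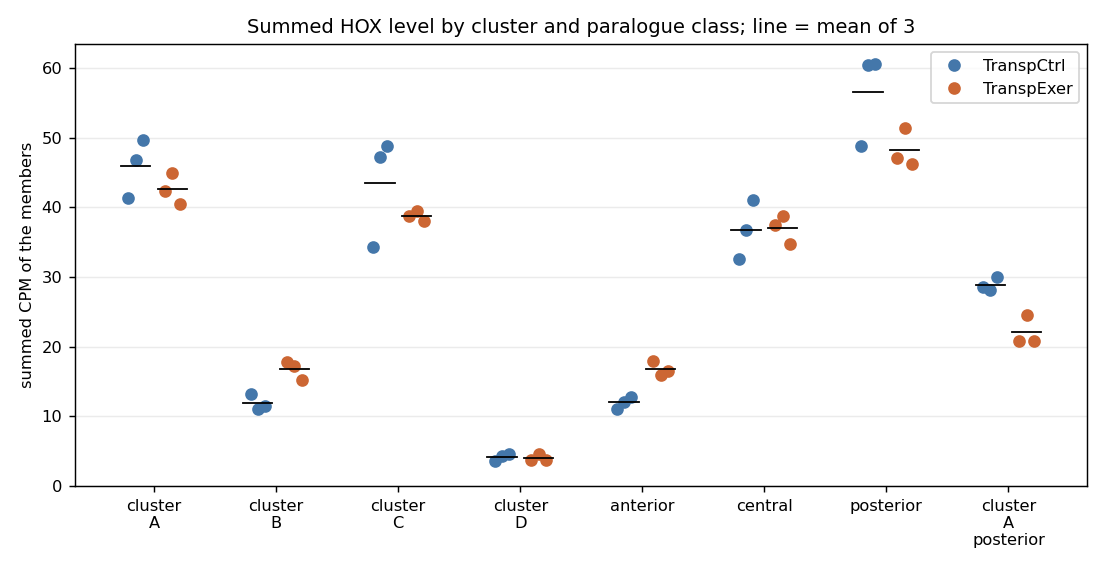
Summed CPM of the HOX genes of each cluster, of each paralogue class and of the posterior end of HOXA, with 1 point for each sample and a line at the mean of 3. The groups separate for HOXB, for the anterior genes and for the posterior end of HOXA, and overlap elsewhere.

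As shares of all HOX counts in a library, anterior genes made up 11.4% ± 0.48 (SD, n = 3) in TranspCtrl and 16.5% ± 1.31 (SD, n = 3) in TranspExer, and posterior genes 53.7% ± 1.39 and 47.3% ± 1.27. Neither share overlapped between the groups. *Hoxc10* alone made up 18.0% ± 3.31 and 18.5% ± 0.17 of the HOX counts, and *Hoxa10* 15.3% ± 0.75 and 11.7% ± 0.80. These shares are independent of how the libraries are scaled to each other, and no test was run on them.

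Count ratios between paralogues of the same group compare genes with similar homeodomains within a library. *Hoxa11* over *Hoxc11* was 0.772, 0.651 and 0.553 in TranspCtrl and 0.235, 0.361 and 0.358 in TranspExer, a difference of -1.06 on the log2 scale. *Hoxa10* over *Hoxc10* was 1.12, 0.701 and 0.810 in TranspCtrl and 0.615, 0.690 and 0.599 in TranspExer, a difference of -0.44 that was -0.25 without TranspCtrl 1, the sample with the highest ratio. Both ratios were lower in every TranspExer sample, that of group 10 by a narrow margin. Of 15 pairs of tested paralogues, 5 hold *Hoxb5*, *Hoxb8* or *Hoxa2*, which passed the low-count filter through 1 group only, and are not counted. Of the other 10, the groups did not overlap in 4, these ratios and those of *Hoxa5* to *Hoxc5* and *Hoxc8* to *Hoxd8*. Among all genes tested, 52.4% did not overlap between groups, a share for single genes and not for ratios. Each had an exact two-sided permutation p-value of 0.1, the smallest that 3 against 3 samples can give (0.167 after Benjamini-Hochberg adjustment over the 15 pairs). The ratio of *Hoxa3* to *Hoxb3* overlapped (exact permutation p = 0.2).

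HOX proteins bind DNA with TALE homeodomain partners of the PBX, MEIS and PREP families, and 9 of 10 cofactor genes were tested. *Pbx2* rose (45.2 ± 4.46 to 61.1 ± 1.98 CPM, SD, n = 3, log2 fold change 0.43, adjusted p 0.00921, edgeR). *Pknox2*, a PREP gene, fell from 10.6 ± 0.24 to 6.00 ± 0.54 CPM (-0.82, adjusted p 0.00203). *Pbxip1*, which encodes a PBX-binding protein, fell by 0.52 on the log2 scale (adjusted p 0.00135), and *Meis2*, a marker of the proximal limb, fell by 0.49 (adjusted p 0.0301), a call that ended without TranspCtrl 2, TranspCtrl 3, TranspExer 2 or TranspExer 3 (adjusted p 0.0702 to 0.0963). So 1 rose and 3 fell, beside 16.6% and 15.5% of all genes, with a median of 0.19. *Meis1* (0.22, adjusted p 0.329) did not pass the test.

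HOX clusters are held silent by Polycomb complexes and kept active by the trithorax (MLL) complexes. All 32 chromatin regulators were tested, 3 rose (9.38%, against 16.6% of all genes), 3 fell (9.38%, against 15.5%) and the median was 0.09. *Phc2*, a Polycomb repressive complex 1 gene, rose from 85.5 ± 22.0 to 155 ± 3.51 CPM (SD, n = 3, log2 fold change 0.86, adjusted p 0.00866, edgeR). *Wdr5*, a core subunit of MLL complexes, and *Dot1l*, the H3K79 methyltransferase, rose by 0.45 and 0.48 on the log2 scale (adjusted p 0.00409 and 0.00274). *Psip1*, whose product tethers MLL to chromatin, fell by 0.45 (adjusted p 0.00265). *Ezh2*, the H3K27 methyltransferase of Polycomb repressive complex 2, lay at 0.03 (adjusted p 0.822), and *Kmt2a*, the gene of MLL1, at -0.20 (adjusted p 0.226).

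Retinoic acid and caudal factors set HOX expression in the embryo, and 12 of 17 such genes were tested, with 2 higher, 2 lower and a median of 0.02. The share called, 16.7% in each direction, was near that of all genes (16.6% and 15.5%). *Crabp2*, which carries retinoic acid to its receptors, fell from 4.82 ± 2.09 to 0.24 ± 0.22 CPM (SD, n = 3, log2 fold change -4.25, adjusted p 0.00107, edgeR). *Aldh1a2*, which makes retinoic acid, fell by 0.51 on the log2 scale (adjusted p 0.0164), and the call ended without TranspCtrl 3, TranspExer 2 or TranspExer 3 (adjusted p 0.0523 to 0.0641). *Cyp26b1*, which degrades it, rose from 17.1 ± 5.35 to 37.2 ± 2.36 CPM (1.13, adjusted p 0.00625), and the receptor gene *Rxra* rose by 0.57 (adjusted p 0.00451). *Cdx2* and *Cdx4* had no count, and *Cdx1* had at most 2 counts in a library.

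Limb patterning genes outside the HOX clusters were checked for the hindlimb origin of the marrow. *Pitx1*, which sets hindlimb identity, was present at 10.6 ± 2.99 and 10.5 ± 1.31 CPM (SD, n = 3, log2 fold change -0.02, adjusted p 0.959, edgeR). The difference lay at -0.24 without TranspCtrl 1 and at 0.13 without TranspCtrl 2, so its direction rests on single samples. The other limb identity genes were at or near the floor, with at most 3 counts in a library for *Tbx4* (hindlimb) and *Tbx5* (forelimb) and at most 5 for *Isl1*. Of 19 tested genes of this list, *Meox1* rose (0.96 ± 0.10 to 4.08 ± 0.14 CPM, log2 fold change 2.08, adjusted p 0.000248) and 5 fell. The largest decreases were in *Prrx2*, a mesenchymal homeobox gene (8.47 ± 1.08 to 2.38 ± 0.56 CPM, -1.83, adjusted p 0.000574), *Emx2* (-0.88, adjusted p 0.018), *Irx3* (-0.80, adjusted p 0.0135) and *Shox2* (-0.56, adjusted p 0.0183). The call of *Emx2* ended without TranspCtrl 3, TranspExer 1 or TranspExer 3 (adjusted p 0.0565 to 0.0762), that of *Irx3* without any 1 of the TranspExer samples (0.0503 to 0.052), and that of *Shox2* without TranspCtrl 3, TranspExer 2 or TranspExer 3 (0.0546 to 0.0693). *Prrx1*, a general limb mesenchyme gene, was at 205 ± 33.1 and 173 ± 1.44 CPM (-0.25, adjusted p 0.146). *Prrx1* lay at -0.15 without TranspCtrl 2 and passed the test without TranspCtrl 1 (-0.37, adjusted p 9.19e-05), with upper-quartile scaling (adjusted p 0.0419) and with scaling by library size only (adjusted p 0.037). The 5.26% higher and 26.3% lower of this list stand beside 16.6% and 15.5% of all genes, and its median was -0.07.

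**Figure D5:**
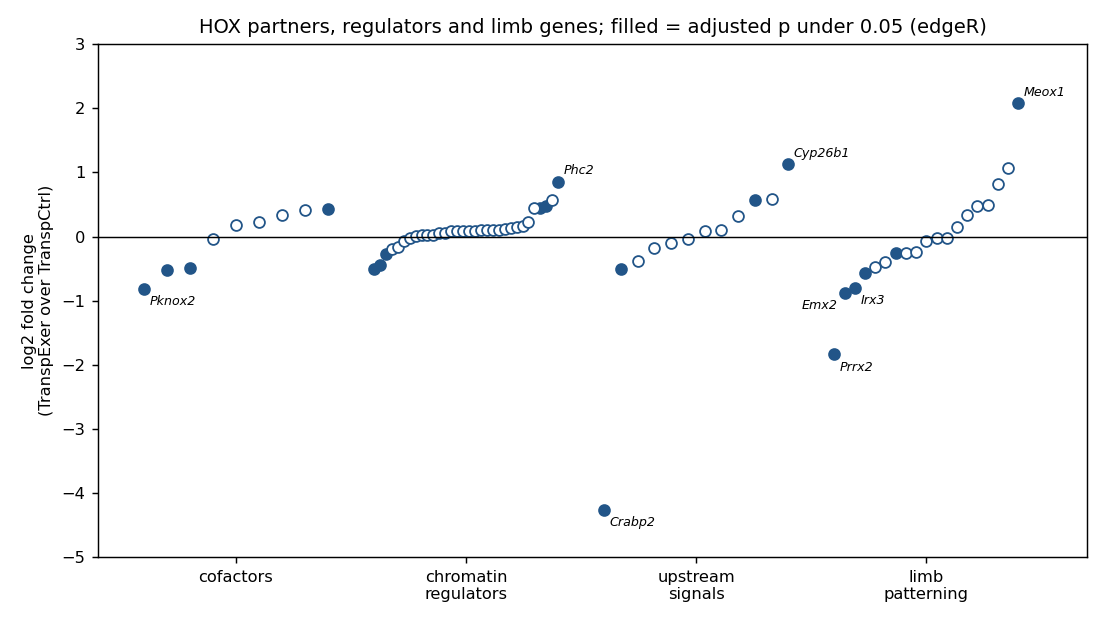
Log2 fold change (TranspExer over TranspCtrl) of the tested HOX cofactors, chromatin regulators, upstream signals and limb patterning genes, each list in ascending order, with filled points for an adjusted p-value under 0.05 and names for called genes at 0.8 or more in size. *Crabp2* (-4.25), *Prrx2* (-1.83) and *Meox1* (2.08) lie farthest from 0.

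Non-coding genes inside the clusters were scarce. Of 20 listed, 17 were in the table, 9 of these had no count and 3 were tested, *Hotairm1* (-0.40, adjusted p 0.605, edgeR), *Hoxa11os* (-0.88, adjusted p 0.209) and *Hoxb3os* (-0.91, adjusted p 0.0922). None passed the test. *Hoxb3os* covers 2250 bases, 52.9% of the exons of *Hoxb3*, and had 23.6, 15.5 and 17.2 counts in the TranspCtrl libraries and 10.8, 10.5 and 6.23 in the TranspExer libraries. *Hottip* and *Haglr* had no count and *Hotair* had at most 9 counts in a library.

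Markers of other marrow cells moved with the groups. Of 18 blood stem and progenitor markers, 14 rose (77.8%, against 16.6% of all genes) and 0 fell (against 15.5%), and their summed level was 437 to 587 CPM in TranspCtrl and 2194 to 2318 CPM in TranspExer, with *Kit* (1.74, adjusted p 2.35e-05, edgeR) and *Hlf* (1.22, adjusted p 0.00307) among those that rose. All 12 endothelial markers rose (100%, against 16.6% of all genes), from a sum of 228 to 283 CPM to 762 to 829 CPM. Of 16 mature blood cell markers 2 rose (12.5%) and 6 fell (37.5%, sums of 9867 to 15448 and 7326 to 8053 CPM), with *Ptprc*, the pan-leukocyte gene CD45, at 0.06 (adjusted p 0.552). The cultures thus held blood-cell transcripts in both groups, beside the stromal transcripts their label names. Of 20 stromal markers 5 rose (25%) and 8 fell (40%), and their sums overlapped between the groups (16560 to 24891 and 16093 to 17341 CPM). Of 7 tested osteoblast and chondrocyte markers 2 rose (28.6%) and 3 fell (42.9%), all beside the same shares of all genes. No marker of the blood, endothelial or stromal lists was without counts. Their part in the rise of *Hoxb5*, *Hoxb8* and *Hoxa3* and in the fall of *Hoxa10* and *Hoxa11* was not tested.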

How the data were processed

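BM MSC RNA-Seq was read in 3 TranspCtrl and 3 TranspExer samples, grouped by the treatment in the labels. The authors deposited each gene's expected count, an estimated count without normalization, and 10.1% to 12.2% of the values in a library were not whole numbers. The labels name mm10, and the aligner, the counter and its strand setting are not given in the sources used here. For the libraries, a stranded kit is named in the labels and a TruSeq kit in the study's methods.

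Expected counts were rounded. edgeR 4.0.16 in R 4.3.3 was used for the low-count filter (filterByExpr), TMM scaling and the quasi-likelihood test of the 2 groups without covariates. P-values were adjusted over 15190 genes by the Benjamini-Hochberg method. The thresholds, an adjusted p-value of 0.05 and, for DEGs, a fold change of 2, are those of the study's methods. CPM values carry the TMM factors. TPM values used exon lengths of GENCODE M21, in which 52073 of 56980 identifiers were found. Promoters came from RefSeq. Count ratios were compared with an exact permutation test. Alternatives were DESeq2 1.42.0, other scalings and filters, the replicate number as a block, and each sample left out in turn. Summing overlapping genes, using the deposited gene lengths and leaving samples out of the count ratios were chosen after seeing the data. The test was also run on simulated data in which every gene had the same spread, so that run is no check of the HOX calls.

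The HOX genes and the other gene lists were chosen with earlier results of these data known. The text accounts for the HOX genes, some of which are not reported here, and names up to 4 called genes of each pathway list, taken by adjusted p-value, and a fixed set of limb, cofactor and chromatin genes. The other marker genes named, and the remaining non-coding genes, were chosen after their values were seen.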

Additional observations from a re-analysis of the deposited data

How the results depend on the processing

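Of the 4 HOX genes called higher, 2 were called with upper-quartile scaling and with scaling by library size only (*Hoxb5* and *Hoxb8* in both), 2 with overlapping genes summed (*Hoxb5* and *Hoxb8*) and 2 with a filter of 1 CPM in 3 samples (*Hoxa3* but neither *Hoxb5* nor *Hoxb8*), which left 0 with a fold change of 2 or more. With each sample left out in turn, 1 to 4 HOX genes were called higher, 1 to 3 lower, and 1 to 3 higher with a fold change of 2. Without TranspCtrl 2, TranspExer 1 or TranspExer 2, only *Hoxb5* was called higher, and without TranspExer 3 only *Hoxb5* and *Hoxb8*. *Hoxa11* alone was called lower without TranspCtrl 2, TranspCtrl 3, TranspExer 1 or TranspExer 3. Leaving out samples moved the calls over all genes from 2523 to between 1315 and 3417 higher and from 2361 to between 1325 and 3041 lower, the lowest without TranspExer 2, with at most 1458 and 1407 also without TranspExer 1 or TranspExer 3. In the 4 pathway lists together the counts moved from 7 to between 7 and 11 higher (the most without TranspCtrl 2) and from 13 to between 5 and 16 lower (8, 8 and 5 without TranspExer 1, 2 and 3, and 6 without TranspCtrl 3). The causes were not tested, beyond the smaller number of samples. The median log2 fold change of the HOX genes was -0.16 for the 33 genes fitted without a filter and -0.18 for the 19 left by the 1 CPM filter, which differ from the 23 in the genes they hold. No called result reversed its direction. Among all genes called, 51.7% were higher with TMM, 41.4% with upper-quartile scaling and 40.5% with scaling by library size only, which moved the median of all genes from -0.02 to -0.10. DESeq2 called 3 HOX genes higher (*Hoxa3*, *Hoxb5* and *Hoxb8*) and 2 lower. With the replicate number as a block, 3 HOX genes were called higher (*Hoxa3*, *Hoxb5* and *Hoxb8*) and 2 lower. Samples with the same number correlated at 0.02, -0.00 and 0.04 in their deviations from the group means, so the numbers were not taken as pairs. At these depths, members under 3 counts in every library allow no statement on direction.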
